A study of Mus musculus with 6 samples.

Results

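This account describes 9 mouse genes of the early neural lineage in undifferentiated embryonic stem (ES) cells with and without Dicer: the transcription factor genes Pax6, Sox1, Sox11, Zic1 and Gbx2, the progenitor filament gene Nes, the neuronal cytoskeleton genes Tubb3 and Map2, and the adhesion gene Ncam1. Its members are every probe set, a group of short array probes read out as 1 value, whose platform annotation names 1 gene that is on this list. They came to 31 of the 45101 probe sets of the Affymetrix expression array. The study compared a Dicer +/- line, D4, with a Dicer -/- line, named 27H in the sample titles and 27H10 in the series title, with 3 arrays of each. The cells are called heterozygous and null here, and the heterozygous cells keep 1 intact Dicer copy. Each genotype is represented by 1 line, so effects of Dicer and of the line cannot be told apart. Nothing states that the 3 arrays of a genotype are separate cultures, and the p-values therefore cover the spread among arrays only, which may be technical.

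Dicer is the enzyme that releases mature microRNAs from their hairpin precursors, and microRNAs lower the stability and translation of the messenger RNAs they pair with. When ES cells enter the neural lineage, they first turn on SOXB1 factors such as Sox1 and the paired-box factor Pax6, together with the filament protein nestin. Differentiating neurons later add Sox11, the tubulin isotype encoded by Tubb3, the dendritic microtubule protein Map2 and the adhesion molecule Ncam1. Several of these transcripts are also known at low or moderate levels in undifferentiated ES cells, Gbx2 among them.

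The 9 genes did not move as a block. Pax6, Map2 and Ncam1 were higher in null cells, Nes, Tubb3, Zic1 and Gbx2 did not pass the test, Sox1 was below the limit of size, and the probe sets of Sox11 disagreed in direction. Probe sets had to reach an intensity of 32, in arbitrary units on a linear scale, on at least 3 of the 6 arrays to be tested, and 22 of the 31 did so, with at least 1 for each gene. Each of the 22 reached 32 on at least 1 array of each line. The null arrays of Map2 1421328_at sufficed for the filter, with 3 of them and 1 heterozygous array at 32. For Zic1 1423477_at the 3 heterozygous arrays did, with 1 null array at 32. Pax6 1425960_s_at and Map2 1421327_at reached 32 on 1 heterozygous and 2 null arrays. Differences are null minus heterozygous on the log2 scale, and a probe set was called at a limma adjusted p under 0.05 with a difference of at least 1, a 2-fold change. Of the 22, 5 were called higher, against 5.97% of all 26545 probe sets tested, and 1 was called lower, against 6.32%. At the adjusted p alone 7 were higher and 3 lower, against 18.9% and 21.2% of all tested. All null arrays were above all heterozygous arrays for 10 of the 22, Map2 1421328_at among them, against 23.6% of all tested. They were below them for 4, against 27.7%. The median difference of the 22 was 0.48, and that of all tested probe sets was -0.06. By the brightest probe set of each gene, 3 of the 9 genes were called higher and none lower, against 7.1% and 6.06% of 12927 genes. The 5 probe sets called higher belong to 3 genes, and the 2 of Ncam1 have the same annotated source sequence. The genes were chosen with earlier results of these data known, so these shares describe the set and test nothing about it.

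**Figure D1:**
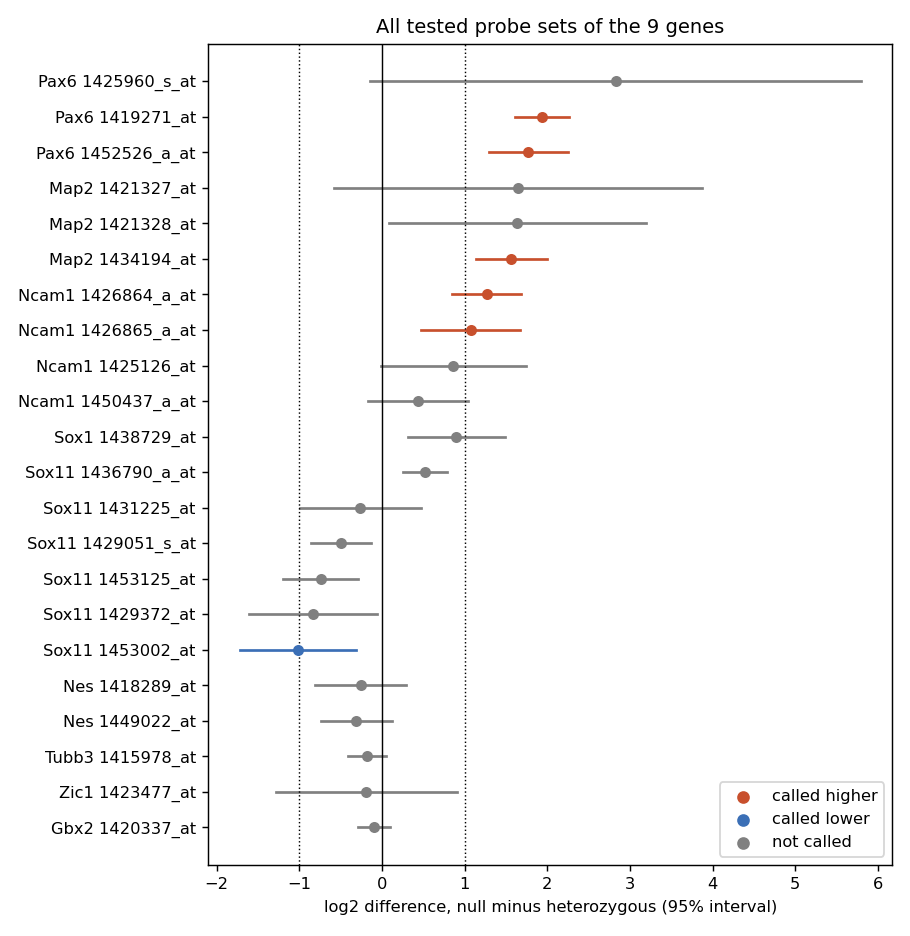
Differences of the 22 tested probe sets, null minus heterozygous on the log2 scale (x axis), by gene and probe set (y axis); points are limma estimates from 3 arrays per line, bars their 95% intervals, dotted lines the limit of size. The 5 probe sets called higher belong to Pax6, Map2 and Ncam1, and the 1 called lower to Sox11.

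Some facts of the series bear on these values. Every array had been scaled to the same trimmed mean, 500 units, while array medians were 49.1 to 52.7 in heterozygous and 44.9 to 46.5 in null cells. Centring arrays on their medians moved the median of all tested probe sets from -0.06 to 0.10 and the split of all calls from 1585 higher and 1677 lower to 2189 and 1177. Dicer1 itself averaged 1098 ± 39.2 on the heterozygous and 1197 ± 62.2 on the null arrays (SD, n = 3) with 1427941_at; the labels do not say which part was deleted, and a probe set outside it checks nothing. The 13 ES cell markers, Pou5f1 and Nanog among them, summed to between 120153 and 124828 units on heterozygous arrays and between 118912 and 125603 on null arrays, and 0 were called (limma; by the adjusted p alone, 3 were higher and 3 lower). No detection calls were used here, and a value near or under 32 may be signal or background. In bulk RNA, a change in the number of cells that express a gene and a change in RNA per cell cannot be told apart.

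Pax6 encodes a paired-box and homeobox factor of the eye, the forebrain and neural progenitors. It had the largest called difference among the 9 genes. Its brightest probe set, 1419271_at, read 166, 124 and 163 on the heterozygous arrays and 549, 550.3 and 614 on the null arrays. The lines were far apart compared with the spread within each. The means were 151 ± 23.3 and 571 ± 37.2 (SD, n = 3), a difference of 1.93 ± 0.15 (SE), or 3.81-fold, with a limma adjusted p of 4.67e-06. A separate probe set, 1452526_a_at, whose suffix marks probes for several transcripts of a gene, read 78.8, 60.0 and 53.5 in heterozygous and 231, 219 and 198 in null cells. It was 3.41-fold higher in null cells (limma adjusted p 0.000104), so both well-measured probe sets agree in direction and nearly in size.

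The other Pax6 probe sets were dim. With 1437816_at the arrays read 26.8, 11.3 and 12.4 against 43.9, 33 and 28.6, again with no overlap, but too few reached 32 for a test. With 1425960_s_at they read 2.09, 2.36 and 33.7 against 45.6, 45.6 and 28.4, which overlap; the difference of 2.82 had a 95% interval from -0.15 to 5.80 and a limma adjusted p of 0.121. With 1456342_at, values between 2.34 and 46.5 were scattered over both lines. Pax6 stayed called with both well-measured probe sets under each alternative that retained them, with differences of 1.80 to 2.17 for Pax6 1419271_at.

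Pax6 is transcribed from more than 1 start. The RefSeq table holds 2 promoter windows for it (build GRCm38.p6, plus strand, 250 bases before to 50 after a start), at chr2:105668646-105668945 and chr2:105682213-105682512. They are shown because Pax6 had the largest called difference among the 9 genes. Both strands were searched for the CRE, TGACGTCA, for the CCAAT box, CCAAT, and for the GC box, GGGCGG; matches are in capitals.
Pax6 first window: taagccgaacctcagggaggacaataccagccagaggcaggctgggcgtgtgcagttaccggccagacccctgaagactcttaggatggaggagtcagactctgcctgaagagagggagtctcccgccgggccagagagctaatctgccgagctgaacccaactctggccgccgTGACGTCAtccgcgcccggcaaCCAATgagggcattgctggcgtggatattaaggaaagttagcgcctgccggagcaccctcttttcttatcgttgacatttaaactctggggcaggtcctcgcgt
Pax6 second window: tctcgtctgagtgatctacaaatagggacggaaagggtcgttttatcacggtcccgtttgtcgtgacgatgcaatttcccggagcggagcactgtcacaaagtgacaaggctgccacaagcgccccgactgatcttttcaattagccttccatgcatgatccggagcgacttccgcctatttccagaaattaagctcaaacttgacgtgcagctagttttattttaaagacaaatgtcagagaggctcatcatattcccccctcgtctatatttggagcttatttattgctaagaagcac
The first window holds 1 CRE and 1 CCAAT box, and the second none of the 3 motifs. The CRE is in 1.79% of the 32851 promoter windows of the table, the CCAAT box in 37.4% and the GC box in 35.7%. A match is only a run of letters and shows no binding.

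By likeness over the 6 arrays, the genes whose brightest probe set followed Pax6 1419271_at most closely were Slc25a40, Clock, Mprip and 1700066M21Rik, with Pearson correlations of log2 values from 0.998 to 0.999. Because the arrays fall into 2 lines, any gene that separates them correlates highly: 1327 genes had a correlation over 0.95. The likeness is a description only.

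Sox1, the SOXB1 factor often used as the earliest marker of the neural plate, was low in both lines. Its probe set 1438729_at read 53.2, 55.5 and 63.9 on heterozygous arrays and 119.7, 86.3 and 119 on null arrays. All null arrays were above all heterozygous arrays. The difference was 0.90 ± 0.26 (SE), 1.87-fold, with a limma adjusted p of 0.0201, which is below the limit of size. It passed that limit after quantile normalization (1.01), after median centring of the arrays (1.05) and when null replicate 2 was left out (1.06). Other alternatives weakened it: the difference was lowest with a pseudocount of 16 (0.75), and with no filter the limma adjusted p was over 0.05. The other Sox1 probe set, 1422205_at, stayed between 4.79 and 17.3 on every array and was not tested.

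Sox11, a SOXC factor of committed neuronal precursors, was read by 6 probe sets that disagreed. The brightest, 1436790_a_at, read 289.6, 289.6 and 335 in heterozygous and 456, 409 and 448 in null cells. Null arrays were all above heterozygous arrays, by 0.52 ± 0.12 (SE) on the log2 scale, 1.44-fold (limma adjusted p 0.00537), which is below the limit of size. The other 5 probe sets all pointed the opposite way. The lowest of them, 1453002_at, read 89.3, 99.1 and 80.9 against 58.2, 36.1 and 40.9, a difference of -1.02 ± 0.32 (SE) or a 2.03-fold fall (limma adjusted p 0.0258). It was the single member called lower, and the call was lost under 10 alternatives, the fits without heterozygous replicate 1 (limma adjusted p 0.0715), heterozygous replicate 2 (-0.95), null replicate 2 (-0.88) and null replicate 3 (-0.97) among them.

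Of the rest, 1453125_at read 148, 143 and 152 in heterozygous and 81.8, 79.8 and 105 in null cells, a difference of -0.74 (limma adjusted p 0.0145). With 1429051_s_at the values were 259.5, 193 and 248 against 167, 158 and 168, a difference of -0.50 (limma adjusted p 0.0327). In both, no null array reached the lowest heterozygous array. With 1429372_at they were 118, 201 and 181 against 51.4, 109.6 and 133, which overlap, and with 1431225_at 53.3, 56.9 and 62.7 against 49.0, 49.1 and 45.8, with differences of -0.84 and -0.26 that did not pass the test (limma adjusted p 0.0815 and 0.567). Without null replicate 3, Sox11 1429372_at was called lower (-1.11). The annotation gives 1429051_s_at and 1453002_at the same source sequence, and likewise 1429372_at and 1453125_at, so these are not independent readings.

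The ratio of 1436790_a_at to the mean of the other 5 was set up after the values were seen. On the log2 scale it was 1.30 ± 0.09 on the heterozygous arrays and 2.5 ± 0.14 on the null arrays (SD, n = 3). The difference of 1.20 had a two-sided exact permutation p of 0.1, the smallest that 3 arrays against 3 can give. Since 1436790_a_at had been seen to run opposite to the other 5, the separation followed from that, and this p tests nothing further. The mean over all 6 Sox11 probe sets was lower in null cells, at -0.47 (limma adjusted p 0.0419 over genes), so that the sign for the gene depends on the probe set. Where the probes lie on the transcript was not analysed here.

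**Figure D2:**
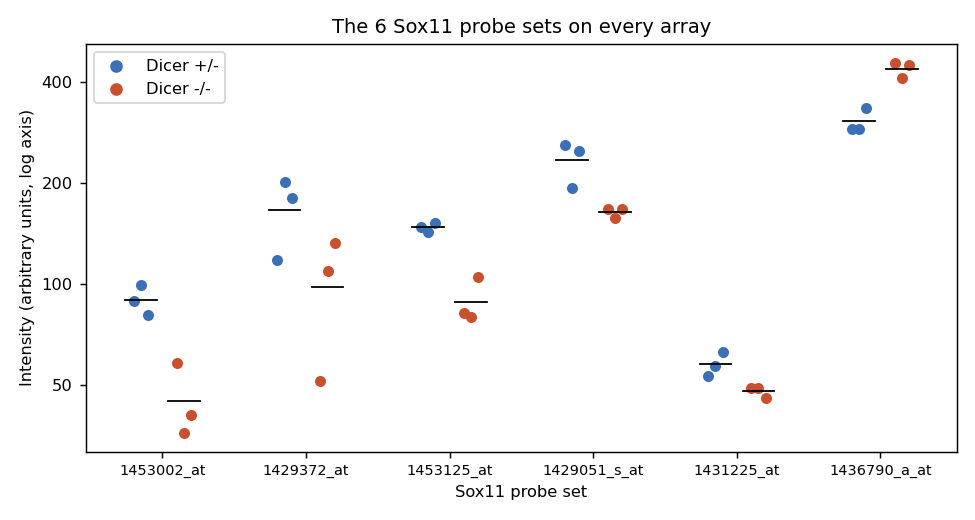
Intensities of the 6 Sox11 probe sets (x axis) on each array, in arbitrary units on a log axis; points are arrays, offset sideways for legibility, and short lines the means of 3. Null arrays are above heterozygous arrays for 1436790_a_at, while the means of the other 5 are lower in null cells.

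Zic1 and Gbx2, both factors of the patterned neural plate, gave no call. The zinc finger factor Zic1 was at the edge of measurement: 1423477_at read 35.1, 45.6 and 34.1 in heterozygous and 46.9, 31.2 and 25.2 in null cells, and 1439627_at stayed between 1.92 and 18. The groups overlap, and the difference of -0.19 had a 95% interval from -1.28 to 0.90, wide enough to hold a 2-fold fall (limma adjusted p 0.793). Gbx2, a homeobox factor of the midbrain-hindbrain border that is also known as a target of the LIF pathway in ES cells, was clearly measured. Its single probe set, 1420337_at, read 1142, 1204 and 1070.3 against 1016, 1043 and 1135. The groups overlap, and the difference of -0.10 had a 95% interval from -0.29 to 0.10 (limma adjusted p 0.412), which leaves out a 2-fold change; the sign turned to 0.057 with arrays centred on their medians.

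Nes encodes nestin, the intermediate filament protein of neural progenitors, which is also made by other dividing cells. Neither tested probe set passed the test. The brighter, 1449022_at, read 295, 309 and 203 in heterozygous and 207, 184 and 256 in null cells. The lowest heterozygous array lies within the null values, and the difference of -0.31 had a 95% interval from -0.74 to 0.12 (limma adjusted p 0.238). With 1418289_at the arrays read 109, 84.7 and 138 against 80.6, 101 and 91.6, a difference of -0.26 (limma adjusted p 0.442). The dim 1453997_a_at read 31.5, 31.8 and 27.3 against 28.7, 7.73 and 4.89 and was not tested.

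The 2 genes of the neuronal microtubule cytoskeleton differed from each other in outcome. Tubb3 encodes the class III beta-tubulin used to stain young neurons. Its single probe set, 1415978_at, read 812, 746 and 689.7 in heterozygous and 603, 694 and 688 in null cells. The groups overlap, and the difference of -0.18 had a 95% interval from -0.41 to 0.05 (limma adjusted p 0.202).

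Map2, which binds and stabilizes microtubules in dendrites, was higher in null cells. Its brightest probe set, 1434194_at, read 91.5, 82.8 and 78.1 on heterozygous and 203, 266 and 283 on null arrays. Every null array was well above every heterozygous array, with means of 84.1 ± 6.79 and 251 ± 42.4 (SD, n = 3). The difference was 1.56 ± 0.19 (SE), 2.96-fold, with a limma adjusted p of 0.000109, and it was called under all alternatives. The other 3 Map2 probe sets were dim, with higher means in null cells and no call. With 1421328_at the arrays read 29.1, 6.37 and 40 against 58.1, 49.9 and 77.1, with no overlap, a difference of 1.64 (limma adjusted p 0.0892), or 1.76-fold with a floor at 32. Without heterozygous replicate 3 it was called (2.16). With 1421327_at they read 36.2, 18.1 and 3.08 against 57.9, 51.5 and 20.8, which overlap (1.65, limma adjusted p 0.222). With 1440699_at they read 4.99, 2.56 and 11.4 against 41.3, 36.7 and 29.6, with no overlap and no test.

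Map2 and Gbx2 lie on chromosome 1. The 1423 tested probe sets of that chromosome had a median difference of 0.28 and those of chromosome 11 a median of 0.25, while the medians of the other chromosomes ran from -0.19 to -0.03. On chromosome 1, 11% of probe sets were called higher and 3.37% lower. Less the chromosome 1 median, Map2 1434194_at was at 1.28 and Gbx2 at -0.38. Zic1 is on chromosome 9, Sox1 and Tubb3 on 8, Sox11 on 12 and Nes on 3. Pax6, on chromosome 2, was at 2.04 less the median of its chromosome, and Ncam1 1426864_a_at, on chromosome 9, at 1.30.

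**Figure D3:**
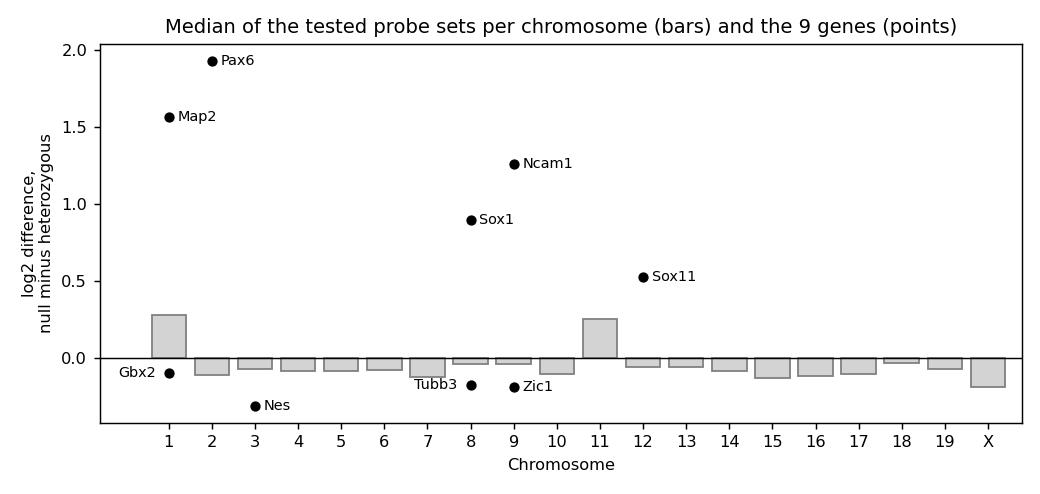
Median log2 difference, null minus heterozygous, of the tested probe sets of each chromosome (bars) and the brightest probe set of each of the 9 genes (points). Bars of chromosomes 1 and 11 stand at 0.28 and 0.25, and Map2 and Gbx2 lie on either side of the chromosome 1 bar.

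The RefSeq promoter window of Map2, shown as the counterpart of the Pax6 windows since both genes were higher in null cells, is at chr1:66175079-66175378 (GRCm38.p6, plus strand). The same motifs are in capitals.
Map2: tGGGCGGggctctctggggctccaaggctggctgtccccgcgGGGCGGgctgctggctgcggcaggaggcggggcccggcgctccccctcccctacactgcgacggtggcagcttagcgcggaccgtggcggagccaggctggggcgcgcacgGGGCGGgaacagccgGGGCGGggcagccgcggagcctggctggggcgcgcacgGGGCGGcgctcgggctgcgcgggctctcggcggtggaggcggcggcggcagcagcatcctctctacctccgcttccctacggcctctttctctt
It holds 5 GC boxes and neither a CRE nor a CCAAT box. It also holds 37 CpG dinucleotides, a count that 5.58% of all windows reach, against 18 and 16 in the Pax6 windows and a median of 7 over the table. The Sox1 window holds 37 as well. Promoter windows were matched for 8 of the 9 genes.

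Ncam1 encodes the neural cell adhesion molecule, an immunoglobulin superfamily protein made in several isoforms. It was higher in null cells with 2 of 4 tested probe sets. The brightest, 1426864_a_at, read 117, 129 and 145 in heterozygous and 259, 397 and 296 in null cells. The lowest null array was above the highest heterozygous array, and the means were 130.4 ± 14.2 and 317 ± 71.4 (SD, n = 3). The difference was 1.26 ± 0.19 (SE), 2.40-fold, with a limma adjusted p of 0.000372. With 1426865_a_at, which has the same annotated source sequence, the arrays read 122, 67.1 and 132 against 198, 267 and 189. That is a difference of 1.07 ± 0.27 (SE), 2.10-fold (limma adjusted p 0.00897), which fell short of the limit without heterozygous replicate 2 (0.77), without null replicate 2 (0.92) and with a pseudocount of 16 (0.96).

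The other tested Ncam1 probe sets were also higher on every null array but did not pass the test. With 1425126_at the values were 33.4, 33.9 and 37.0 against 60.0, 88.1 and 47.9, a difference of 0.86 (limma adjusted p 0.109). With 1450437_a_at they were 66.7, 61.0 and 61.4 against 84.3, 103 and 71.3, a difference of 0.44 (limma adjusted p 0.232). The remaining 3 were not tested. With 1450438_at the arrays read 8.94, 33.5 and 16.9 against 7.91, 5.28 and 4.02, with no overlap and null lower, opposite to the called probe sets. The other 2 were under 32 on all arrays. As a mean over its tested probe sets Ncam1 was at 0.91 (limma adjusted p 0.00864 over genes), short of the limit of size.

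**Figure D4:**
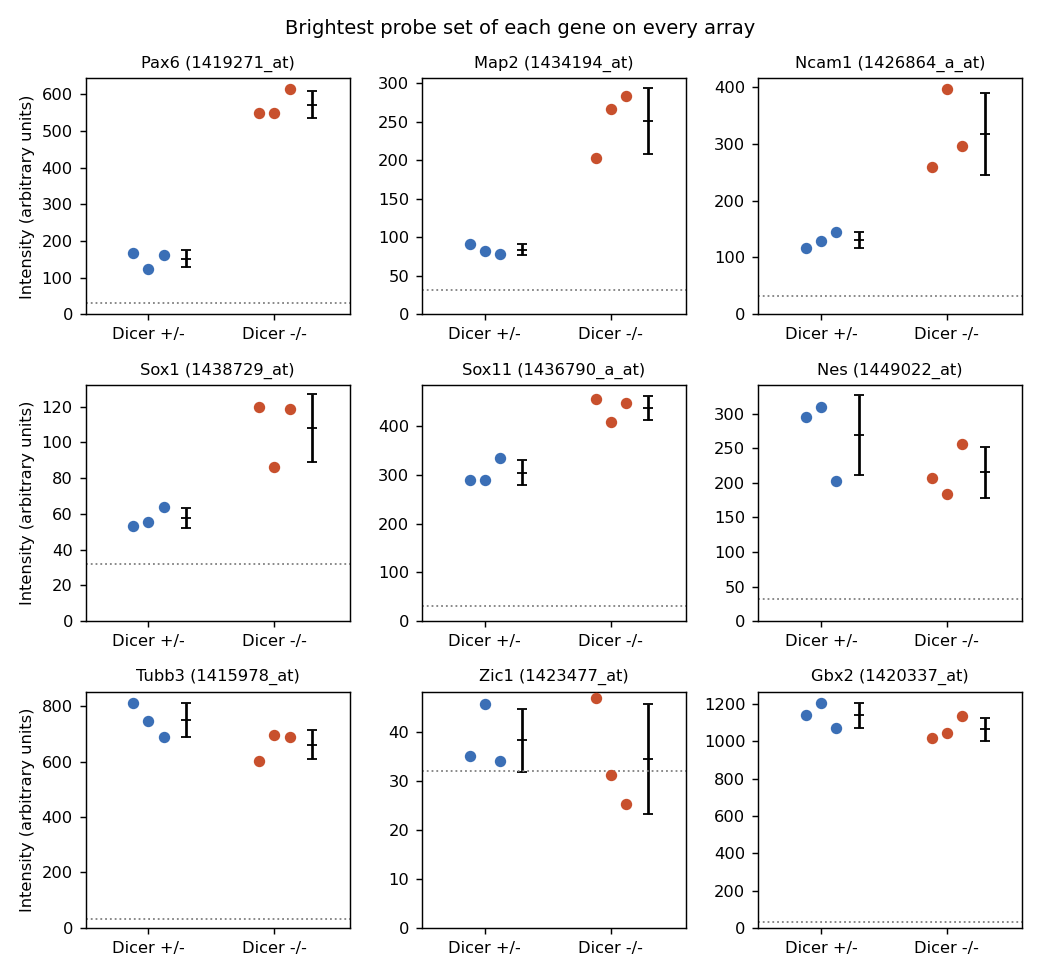
Intensity (y axis, arbitrary units) of the brightest probe set of each gene on every array of the Dicer +/- and Dicer -/- lines; points are arrays, offset sideways for legibility, bars the mean ± SD of 3, dotted lines an intensity of 32. The lines do not overlap for Pax6, Map2, Ncam1, Sox1 and Sox11 and overlap for Nes, Tubb3, Zic1 and Gbx2.

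Related neural genes were read from 6 lists of 159 genes in all, each gene by its brightest tested probe set. Of the 118 tested, 6 were called higher (5.08%) and 16 lower (13.6%), against 7.1% and 6.06% of all genes, with a median of 0.12 against -0.01. With arrays centred on their medians the split was 12 higher and 14 lower. At the limma adjusted p alone the order turned, with 29 higher and 25 lower. Of all tested probe sets, 18.9% were higher and 21.2% lower at that threshold, and no share over genes was taken. The same holds for the counts of each list by the adjusted p alone. The direction differed between lists, as the plot of the lists shows.

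**Figure D5:**
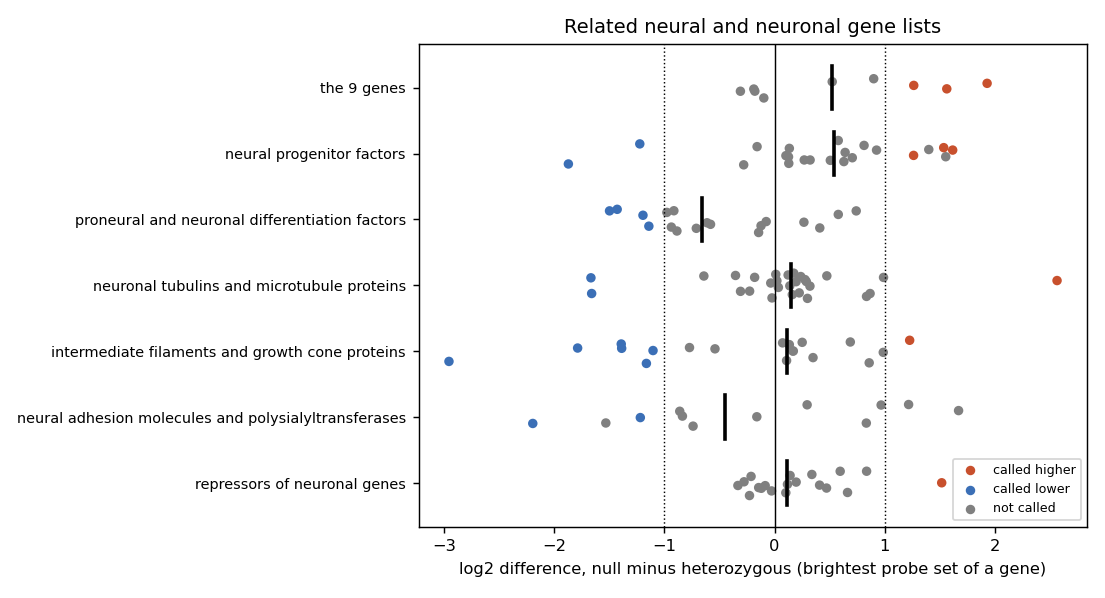
Log2 differences, null minus heterozygous (x axis), of the tested genes of the 9-gene set and of 6 related lists, each gene by its brightest probe set; points are genes, black bars list medians, dotted lines the limit of size. Called genes of the proneural list and most of those of the filament and growth cone list lie on the lower side.

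Among neural progenitor factors, 22 of 37 were tested, 3 were called higher and 2 lower, and the median was 0.54; 8 were higher and 2 lower by the limma adjusted p alone. Vim, the intermediate filament partner of nestin, rose from 6081 ± 292 to 17628 ± 617 (SD, n = 3), or 2.90-fold (limma adjusted p 1.19e-07), and its other 2 tested probe sets rose too. Lhx2, a LIM homeobox factor of forebrain and eye, rose from 31.6 ± 5.34 to 96.6 ± 13.1, 3.07-fold, or 2.84-fold with a floor at 32. Rfx4, a winged-helix factor of neural progenitors, rose by 1.26 (limma adjusted p 0.0232), a call that was lost without heterozygous replicate 2 or 3 or null replicate 2 or 3 (limma adjusted p 0.0622 to 0.0929). Pou3f1 (Oct6), a POU factor of the epiblast and neural precursors, fell from 1389 ± 329 to 381 ± 99.2, a difference of -1.87. The other call was Sox3, a SOXB1 relative of Sox1, at -1.22, named after its value was seen.

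Proneural and neuronal differentiation factors were lower where they were called. Of 29 listed, 18 were tested, 0 were higher and 4 lower, with a median of -0.66; at the limma adjusted p alone, 1 was higher and 8 lower. The Notch ligands Dll3 and Dll1 fell from 349 ± 8.22 to 130.1 ± 46.3 and from 204 ± 19.9 to 77.6 ± 21.7 (SD, n = 3). Insm1, a zinc finger factor of neuronal precursors, fell from 147 ± 7.65 to 64.6 ± 6.42, with limma adjusted p values of 0.000815, 0.0009 and 0.00133 for the 3 genes. Elavl3, an RNA-binding protein of neurons, fell by 1.14 (limma adjusted p 0.0307). Its call was lost under 9 alternatives. Among them were the fits without heterozygous replicate 1 (-0.92) or 2 (limma adjusted p 0.0644) and without null replicate 3 (-0.82). The other tested Elavl3 probe set was at -0.97 (limma adjusted p 0.382). The neuron-side genes Map2 and Ncam1 were thus higher in the line in which these 4 genes were lower. Whether both changes lie in the same cells was not tested.

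Of 32 tubulin and microtubule genes, 28 were tested, 1 was called higher and 2 lower, with a median of 0.15; the limma adjusted p alone gave 7 higher and 3 lower. Tubb2a, a beta-tubulin isotype abundant in neurons, rose from 731 ± 81.5 to 4331 ± 554 (SD, n = 3), or 5.92-fold (limma adjusted p 1.38e-07). That probe set, 1427347_s_at, carries the suffix for probes shared by several genes; 1427838_at was at 1.0. Beta-tubulin genes are close in sequence, so the size for Tubb2a is uncertain. Kif1a, an axonal motor for synaptic vesicle precursors on chromosome 1, fell by 1.66, and Dpysl5, a collapsin response mediator, by 1.67.

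Intermediate filament and growth cone genes gave 6 lower and 1 higher of 19 tested, with a median of 0.11, and 7 lower and 5 higher by the limma adjusted p alone. Gap43, the growth cone phosphoprotein, fell from 1193 ± 109.97 to 155 ± 32.7 (SD, n = 3), 7.76-fold lower (limma adjusted p 4.3e-07). Nefm, the medium neurofilament subunit, fell from 758 ± 65.0 to 289 ± 14.6, Synm, which encodes the filament protein synemin, by 1.39, and Syp, the synaptic vesicle protein synaptophysin, by 1.79, or 2.79-fold with a floor at 32. The other neurofilament subunits, named after their values were seen, went the opposite way below the limit of size: Nefh differed by 0.99 and Nefl by 0.86 (limma adjusted p 0.000151 and 5.23e-06), with every null array above every heterozygous array. The gene that rose was Uchl1, a ubiquitin hydrolase of neurons, from 1472 ± 142 to 3435 ± 121, named after its value was seen.

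Of the neural adhesion list, 12 of 20 genes were tested, 0 were called higher and 2 lower, with a median of -0.45 (limma; by the adjusted p alone, 2 were higher and 2 lower). Nrcam, an L1-family adhesion molecule, fell from 160 ± 11.5 to 37.2 ± 15.9 (SD, n = 3), 4.0-fold with a floor at 32. St8sia4, which adds polysialic acid to the Ncam1 protein, fell from 80.0 ± 15.7 to 34.2 ± 4.78, a difference of -1.22, and was not called without heterozygous replicate 3 (limma adjusted p 0.0887) or with a pseudocount of 16 (-0.93). Ncam1 and this enzyme of its modification thus had calls in opposite directions, with St8sia4 near 32 on the null arrays. St8sia2, another gene of the list for a polysialic acid enzyme, was dim and its arrays overlapped (1.22, limma adjusted p 0.366).

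Of 20 genes that repress neuronal genes or their differentiation, 19 were tested, 1 was called higher and 0 lower, with a median of 0.12; by the limma adjusted p alone 6 were higher and 3 lower. Rcor3, a corepressor of the CoREST family, rose from 84.1 ± 13.3 to 245 ± 64.3 (SD, n = 3), a difference of 1.52 (limma adjusted p 0.000541), or 0.99 as a mean over its probe sets. Ctdsp1, a small phosphatase known to silence neuronal genes, differed by 0.84 and Ehmt2 (G9a), a histone methyltransferase, by 0.66. Rcor3 and Ctdsp1 are on chromosome 1, whose median was 0.28.

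Markers of other cell types were read beside these results, and their part in them was not tested. The 12 fibroblast markers, of feeder cells, summed to 755 to 835 units on heterozygous and 751 to 883 on null arrays, and Postn was under 32 on all arrays. Dcn, with means of 31.0 and 263, raised the null sums. The median difference of the 9 tested was -0.44, and by the limma adjusted p alone 1 was higher and 2 lower. Col1a2, Col3a1 and Thy1 were lower on every null array (-0.79, -0.87 and -0.52, limma adjusted p 0.101, 0.178 and 0.0352). Col3a1 was tested through its heterozygous arrays alone, with all null arrays under 32 (1.46-fold with a floor at 32). Col1a1 was lower (-3.35, or 2.05-fold with a floor at 32; tested through its heterozygous arrays alone, with all null arrays under 32) and Dcn higher (3.32, or 6.61-fold on that scale). The 10 measured glial markers summed to 619 to 726 and 417 to 659.8 units, with Mog under 32 on all arrays and 1 call, Slc1a3, lower (-1.33, not called without any 1 of 5 of the 6 arrays in turn). The 10 neural crest markers summed to 1673 to 1868 and 1700 to 2026 units, with 1 call, Ets1, lower (-2.55, or 4.21-fold with the floor). By the limma adjusted p alone 1 neural crest marker was lower and 1, Ngfr, was higher (0.95, limma adjusted p 0.000183). Primitive endoderm markers summed to 2231 to 3088 units on heterozygous and 885 to 916 on null arrays, with 0 of 11 tested called higher and 5 lower, Dab2 (-2.13), Cubn (-1.89) and Lama1 (-1.76) leading. Trophectoderm markers summed to 11373 to 12523 and 6316 to 6793 units, with Elf5 under 32 on all arrays. Krt18 (-1.47) and Cdx2 (-3.37, or 2.09-fold with the floor) were called lower. Cdx2 was also tested through its heterozygous arrays alone, and its limma adjusted p was 0.0532 without an intensity trend. The keratin genes Krt8 and Krt18 held most of the fall in the sum, from means of 4700 and 5244 to 2705 and 1896. By the limma adjusted p alone 3 markers were lower and 1, Esx1, was higher (0.85, limma adjusted p 0.0126). Tfap2c and Gata3 were nearly level (0.04 and 0.04). Mesoderm markers summed to 589 to 604 and 475 to 590.4 units, with Flt1 lower (-2.56, or 4.23-fold with the floor) and Evx1 higher (1.33).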

How the data were processed

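RNA of 3 Dicer +/- and 3 Dicer -/- ES cell samples was labelled as biotinylated cRNA and hybridised to Affymetrix arrays, per the labels' protocols. The authors deposited 1 linear intensity per probe set, scaled to a mean of 500 after trimming 2% at each end, as the values show; GCRMA is the only tool in the submitters' processing notes and its step is unknown. Arrays were grouped by title. The number of arrays limits the precision.

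Intensities were turned into log2. The 64 control probe sets were left out, and the rest had to reach log2 5 on at least 3 arrays. The remaining 26545 were fitted with limma 3.58.1 in R 4.3.3 (lmFit, eBayes with an intensity trend, group as the only term, two-sided, Benjamini-Hochberg over all probe sets). The fit was tested on simulated data. Lists use the brightest probe set of a gene. Symbols come from the platform annotation and chromosomes from RefSeq for GRCm38.p6. The members and lists were chosen with earlier results of these data known. Named were all members, up to 4 called genes of each neural list (where fewer than 2 were called, up to 2 more at the adjusted p), up to 3 of each marker list, and the 4 genes most like the leading member. The alternatives were other filters, priors, scalings, probe set rules, thresholds, array weights, the replicate block, chromosome medians and leaving out arrays.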

Additional observations from a re-analysis of the deposited data

How the results depend on the processing

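Over 22 alternatives, the counts for the members moved as follows. Member probe sets called lower went from 1 to 0 with no filter, a log2 filter of 7, quantile normalization, arrays centred on their medians, a pseudocount of 16, an adjusted p under 0.01 and chromosome medians subtracted, and to 3 at an adjusted p under 0.05 alone; leaving out 1 array gave 0 to 1. Member probe sets called higher went from 5 to 2 without probe sets whose suffix marks probes for several transcripts or genes. That removes 3 of the 5 by construction, all with the suffix for several transcripts of a gene. Member genes called higher went from 3 to 2 there, as the called Ncam1 probe sets were removed. With 1 array left out, member probe sets called higher were 4 to 6. At the adjusted p alone, 5 member genes were called higher, 29 list genes were higher and 25 lower, and 5013 of all probe sets were higher and 5620 lower. List genes called higher went to 12 with arrays centred on their medians, and all probe sets called lower to 980 with the log2 filter of 7, which tests fewer. Directions turned for Gbx2 with arrays centred on their medians (0.057), for Sox11 as a mean over probe sets (-0.47, which takes in the 5 probe sets of opposite sign) and for Zic1 without null replicate 3 (0.012; lowest value with 1 array left out -0.44, without null replicate 1); the cause was otherwise not tested. With 1 array left out, member genes called higher were 3 to 4, and called lower 0; list genes were 5 to 8 higher and 15 to 18 lower; all probe sets were 1384 to 1635 higher and 1272 to 1795 lower. In the fit with a replicate block, 5 member probe sets were higher and 1 lower, as without it, and all probe sets gave 1597 and 1716. Correlations of same-numbered arrays' deviations were 0.03, 0.03 and 0.08, and the numbers were not used to pair arrays in the main fit. Each of the 6 arrays correlated best with its own number, a hint of pairing from the data and not from the design. Intensities near 32 limit the dim probe sets.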
